A study of Saccharomyces cerevisiae and Saccharomyces pastorianus with 78 samples.

Results

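The 56 genes for proteins of the small (40S) ribosomal subunit, RPS0A to RPS31, were followed in the yeast *Saccharomyces cerevisiae* BY4741, a haploid laboratory strain of mating type a, through exposure to EtOH and to SDS. They were taken by systematic name from the 7127 features of the deposited BY4741 count table. All 56 passed the filter on low counts that left 6101 features for testing, and the lowest count of a member in a library was 341. They encode 32 proteins. Of these proteins 8 have 1 gene each, among them RPS2, RPS3, RPS12, RPS13, RPS15, RPS20 and RPS31, and 24 proteins have an A and a B gene (paralogs, 48 copies).

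Wild-type cells were grown in YPD, a rich glucose medium, at 25 °C, and poly(A) RNA was sequenced from 39 libraries in 13 groups of 3 biological replicates. The treated groups received 7% EtOH or 0.01% SDS, agents that act on the plasma membrane, and were collected at 6 times up to 20 h after the addition: at 0.5 and 1 h, at 2 and 4 h, and at 8 and 20 h. The control was drawn just before the addition, from the aliquot of the split culture to which EtOH was then added. From the SDS aliquot no control was taken, both stresses are compared with the same 3 control libraries, and no culture without an agent was collected at later times, so that time after the addition and time in culture cannot be told apart.

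The libraries held 3105804 to 21167236 counts, with a median of 7706767. LEU2, MET17 and URA3, genes deleted in BY4741, had 0 counts in every library. HIS3, also an auxotrophic marker of BY4741, had 310 to 2650 counts, and counts per gene do not show on which part of it they fall. The a-cell receptor gene STE2 had 935 to 6430 counts. Replicates of the late EtOH groups differed more than those of other groups. The 56 genes made up 1.92% of the counts in EtOH 20 h replicate 3, against 4.84% and 3.53% in replicates 1 and 2. Counts of called members among all 56 genes at 20 h of EtOH are given with and without replicate 3. Most values of single genes, pairs and smaller sets at that time come from all 3 libraries. What set the late EtOH libraries apart was not tested.

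The small subunit holds the mRNA and reads its codons; its proteins sit on the 18S rRNA, line the mRNA entry and exit channels and bind initiation factors. Ribosomal protein genes are among the most highly expressed in growing yeast, they are transcribed together through Rap1, Fhl1 and Ifh1 under the TOR and protein kinase A pathways, and their mRNAs are known to drop in many environmental stresses. Most are duplicated, and in several pairs one copy carries an intron or a site through which the protein lowers its own mRNA.

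In SDS the small-subunit mRNAs dropped together within 0.5 h and were back near the control level at 8 h. In EtOH they stayed near the control until 4 h and were lower at 8 and 20 h. The summed counts of the 56 genes, as a share of each library, were 6.75%, 7.01% and 7.26% in controls. After SDS the mean share was 2.82% ± 0.263 at 0.5 h, 3.58% ± 0.370 by 1 h, 3.86% ± 0.0980 by 2 h, 4.32% ± 0.179 by 4 h, 6.76% ± 0.320 by 8 h and 6.47% ± 0.195 by 20 h (SD, n = 3 each). After EtOH it was 7.55% ± 0.344 at 0.5 h, 7.38% ± 0.443 by 1 h, 7.15% ± 0.755 by 2 h, 6.74% ± 1.04 by 4 h, 5.24% ± 1.10 by 8 h and 3.43% ± 1.46 by 20 h (SD, n = 3 each). The 3 libraries of SDS 0.5 h, at 2.53%, 2.91% and 3.03%, and those of EtOH 20 h all lay below the 3 controls. So did those of SDS 1, 2, 4 and 20 h and of EtOH 8 h, the SDS 20 h libraries by little (6.25% to 6.63%). With 3 libraries against 3, the exact two-sided permutation test cannot go below p = 0.1, and it gave that value in each of these cases. These values are shares of the sequenced poly(A) RNA, and a smaller share of RPS transcripts and a smaller amount of them per cell cannot be told apart.

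**Figure D1:**
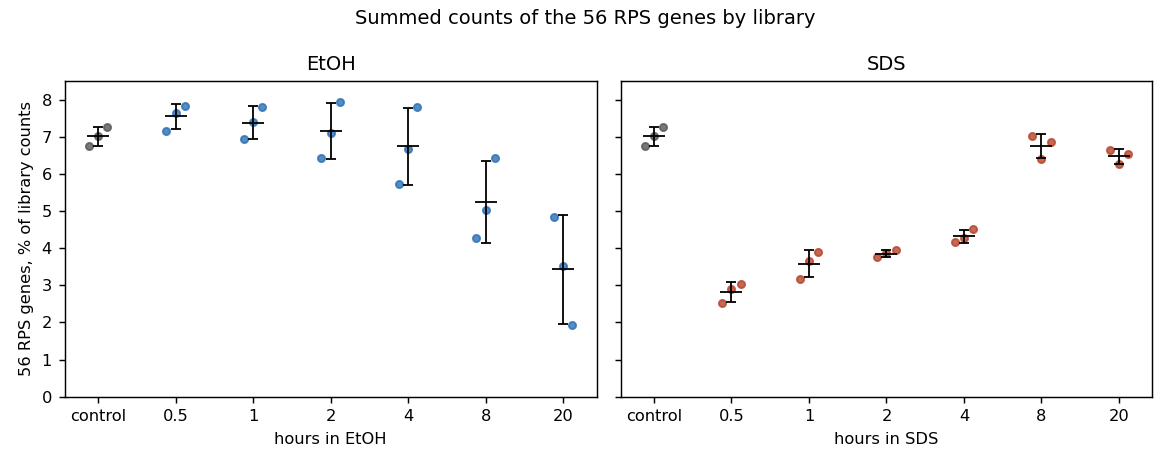
Share of each library's counts that fell on the 56 RPS genes (%, y axis) by hours after the addition (x axis), with EtOH on the left and SDS on the right. Points are libraries and bars the mean ± SD of 3. The lowest means are 3.43% at 20 h of EtOH and 2.82% at 0.5 h of SDS, and the 3 controls, shown in both panels, lie at 6.75% to 7.26%.

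Each gene was tested with edgeR's quasi-likelihood test over all 6101 features, and was called at a Benjamini-Hochberg adjusted p under 0.05 with a log2 change of at least 1 in size. Levels of single genes are CPM, counts relative to library size, on library sizes scaled by TMM (scaled CPM), and changes are log2 ratios with their standard error. At 0.5 h of SDS 51 of the 56 genes fell and 1 rose, while 10.6% of all tested features were called lower and 8.49% higher. The median member changed by -1.44, against 0.02 for all features. The 4 genes outside these calls besides RPS9A, which rose, were RPS14B, RPS22B, RPS27A and RPS30A. In 55 members the 3 libraries of SDS 0.5 h lay below all 3 controls, the other one being RPS9A, which lay above them. How many of all features lay apart from the controls in this way was not counted.

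The calls in SDS grew fewer with time. At 1 h 35 members fell and 1 rose, with 5.56% of all features called lower and 5.79% higher, and the median member changed by -1.06. By 2 h 19 members fell, with 3.67% of all features called lower and 5.8% higher, and the median was -0.93. By 4 h 6 members fell, with 2.79% called lower and 7.69% higher, and the median was -0.85. Among them were RPS20 (-1.17), RPS26B (-1.15), RPS22A (-1.14) and RPS2 (-1.05). The fall at 4 h sat close to the 2-fold limit: none was called when libraries were scaled by their totals alone, 10 were without control replicate 1 and 4 without control replicate 3. At 8 and 20 h of SDS edgeR and DESeq2 each called 0 members, with 4 and 2 members at an unadjusted p under 0.05. Of all features 4.11% were called higher and 2.03% lower at 8 h, and 2.7% higher and 1.97% lower at 20 h. The members' median was -0.06 at both times. Of the 56 genes, 52 had their lowest mean in SDS at 0.5 h.

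EtOH left most members near the control for 4 h. At 0.5, 1, 2 and 4 h 1 member rose, RPS28B, and none was called lower, while 0.918%, 1.1%, 1.56% and 3.29% of all features were called higher and 1.26%, 1.25%, 1.28% and 1.72% lower. The median member differed from the control by 0.18, 0.14, 0.07 and -0.05 at these times. At 0.5 h 28 members had all 3 EtOH libraries above all 3 controls, but RPS28B alone was called. The number of all features with this order was not counted, so the 28 cannot be set against it. At 8 h 13 members fell and none rose, with 3.02% of all features called lower and 7.2% higher, and the median was -0.56. Among them were both copies of RPS0, RPS1 and RPS4, and RPS2, RPS3, RPS6A, RPS7A and RPS31. Scaling by library totals alone, which raised the median of all features by 0.36 at this time, left 3 members called.

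At 20 h of EtOH 41 members fell and none rose, with 4.25% of all features called lower and 9.67% higher, and the median was -1.19. The number was 21 without EtOH 20 h replicate 3, 51 without replicate 1 and 24 when libraries were scaled by their totals alone. In 53 members the 3 libraries of EtOH 20 h lay below all 3 controls, a count not made for all features. The 15 members outside the calls included both copies of RPS10, RPS28, RPS29 and RPS30, and their changes lay between -0.97 for RPS10A, RPS21A and RPS28A and 0.30 for RPS9A. Of the 56 genes, 54 had their lowest mean in EtOH at 20 h.

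**Figure D2:**
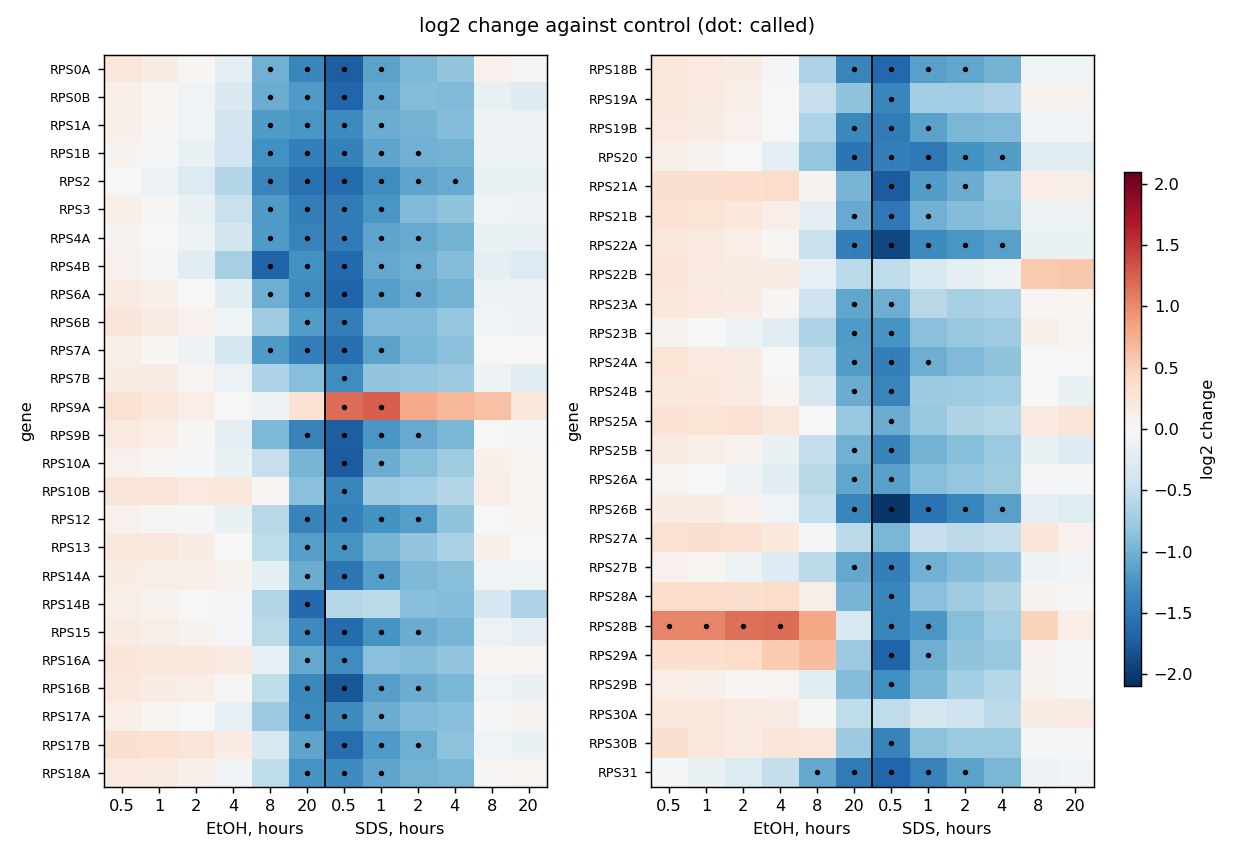
Log2 change of 51 of the 56 genes against the control (colour), with genes down the page and hours of EtOH (left) and SDS (right) across. A dot marks a called change. RPS9A (1.18 at 0.5 h) is called higher in SDS and RPS28B (1.03 at 0.5 h) in EtOH, while most genes are called lower at 0.5 h of SDS and at 20 h of EtOH.

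EtOH and SDS were also compared directly, without the shared controls. At 0.5 h 52 of 56 members were higher in EtOH, with a median of 1.62, while 12.5% of all features were called higher and 11.6% lower. At 1 h 44 were higher in EtOH and RPS9A was lower, with a median of 1.16, against 7.57% of all features called higher and 7.47% lower. At 2 h 24 were higher, with 4.34% of all features called higher and 6.93% lower and a median of 0.95 for the members. At 4 h 11 were higher, with 4% of all features called higher and 7.1% lower and a median of 0.72. The count at 4 h was 7 without the filter on low counts and 4 to 19 when single libraries were left out. The late comparisons ran the other way. At 8 h 10 members were lower in EtOH, with 3.33% of all features called lower and 5.34% higher, and the median was -0.55. That count was 6 to 13 when single libraries were left out and 1 when libraries were scaled by their totals alone, and the summed shares of the 2 groups overlapped (5.24% in EtOH and 6.76% in SDS on average, exact two-sided permutation p = 0.2). At 20 h 38 were lower in EtOH, with 5.2% called lower and 8.64% higher, the median was -1.11, and 10 were lower without EtOH 20 h replicate 3.

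Within a stress, late and early libraries differed in opposite directions. In SDS 53 members were higher at 20 h than at 0.5 h, with a median of 1.38, while 7.54% of all features were called higher and 4.61% lower. RPS9A at -0.96, RPS14B at -0.04 and RPS30A at 0.71 were the members not called. In EtOH 52 members were lower at 20 h than at 0.5 h, with a median of -1.37, while 4.77% of all features were called lower and 10.5% higher. RPS9A, RPS22B, RPS27A and RPS30A were not called, and 39 members were lower without EtOH 20 h replicate 3.

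**Figure D3:**
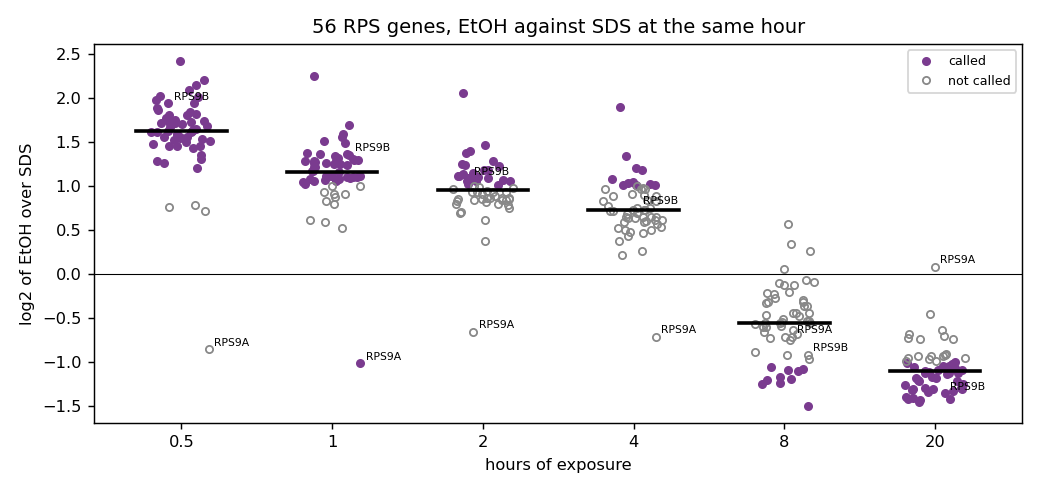
Log2 ratio of EtOH over SDS at the same hour for each of the 56 genes (y axis) by hours of exposure (x axis). The median is 1.62 at 0.5 h and -1.11 at 20 h, and RPS9A is the 1 member called lower in EtOH before 8 h.

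The 8 proteins with 1 gene have no second copy to share their supply. Rps2, Rps3 and Rps20 lie around the mRNA entry side of the subunit, Rps15 near the decoding centre, and Rps31 is made as a fusion to ubiquitin. Per kilobase of coding sequence, RPS20 (YHL015W, chrVIII:75412-75777, plus strand, R64) was the highest of the 56 genes in controls at 9283 ± 363 scaled CPM per kb, and RPS31 (YLR167W, chrXII:498947-499405, plus strand) followed at 9118 ± 449 (SD, n = 3 each). These neighbours differed by less than their SD.

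RPS20 had 1054, 1188 and 1347 scaled CPM at 1 h of SDS, against 3297, 3348 and 3548 in controls. All 3 SDS libraries lay below every control, and RPS20 and RPS26B had the largest falls of the members at that hour. The change of RPS20 was -1.51 ± 0.21 (SE; edgeR adjusted p = 6.11e-07). RPS2 had 1697, 1271 and 599.9 scaled CPM at 20 h of EtOH, against 3267, 3430 and 3871 in controls, a change of -1.57 ± 0.20 (SE; edgeR adjusted p = 1.06e-07). The spread among the EtOH libraries of RPS2 was wide, but none reached a control. Without EtOH 20 h replicate 3 the change of RPS2 was -1.25. The standard error and p-value rest on a spread shared by all 13 groups and can understate the spread at 20 h of EtOH. As a group the single-copy genes were called lower in 8 of 8 cases at 0.5 h of SDS (median -1.48), in 7 at 1 h, in 4 at 8 h of EtOH (median -0.94) and in 8 at 20 h of EtOH (median -1.46).

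Of the 24 A copies 21 fell and 1 rose at 0.5 h of SDS, and of the 24 B copies 22 fell. At 20 h of EtOH 15 A copies and 18 B copies fell. Summed over both copies, a protein's mRNA level in controls lay between 2514 scaled CPM per kb for RPS27 and 9283 for RPS20, a ratio of 3.69. The ratio of the highest to the lowest protein was 3.22 at 0.5 h of SDS, again RPS20 over RPS27. At 20 h of EtOH it was 2.37, for RPS31 (3263 ± 1592) over RPS3 (1377 ± 699, SD, n = 3 each). The spread there was wide. The A copy's share of a pair's counts in controls ran from 9.62% for RPS9 to 86.8% for RPS22, and it was between 40 and 60% in 12 of the 24 pairs.

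To see whether the 2 copies of a pair kept their balance, the log2 ratio of A over B was tested with limma over the 64 pairs of tested genes whose symbols differ only in a final A or B, of which 24 are small-subunit pairs. A pair was called at an adjusted p under 0.05 with a change of at least 1.5-fold at some time. In SDS 5 of the 24 pairs were called, RPS9, RPS22, RPS14, RPS26 and RPS30, against 26.6% of all 64. In EtOH 5 were called, among them RPS9, RPS22, RPS29 and RPS28, against 25% of all 64. Between EtOH and SDS 9 were called, against 37.5%. The pairs of the small subunit were thus called about as often as all pairs together. The other pairs stayed under the 1.5-fold limit but did not all keep their balance. By adjusted p alone 23 of the 24 pairs changed in SDS and 24 in EtOH. The share of all 64 pairs by that rule is not given here, so these counts cannot be set against all pairs. The largest change among pairs not called was 0.52 in SDS and 0.58 in EtOH on the log2 scale. RPS1, whose proteins bind near the mRNA exit, changed least in SDS (0.09, limma adjusted p = 0.248), followed by RPS4 (0.15, adjusted p = 0.00626). RPS18 changed least in EtOH (0.16, limma adjusted p = 3.96e-05). Each of these p-values is for the 6 times together.

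RPS9 moved most. Rps9 binds the 18S rRNA early in assembly, lies near the mRNA entry channel and is known for mutations that alter decoding accuracy; excess Rps9 is known to hinder splicing of RPS9 transcripts. RPS9A (YPL081W, chrXVI:404950-406044, plus strand, R64) and RPS9B (YBR189W, chrII:604508-605508, plus strand) share 90.91% of their coding bases and their proteins differ at 5 aligned residues, the A protein having 197 residues and the B protein 195. Of the stretches of 50 bases in the coding sequence of RPS9A, 4.95% occur more than once in the genome, so that most stretches of this length are unique.

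A stretch of 150 bases of the upstream region, 300 to 151 bases before the start codon, is shown for each because the copies went opposite ways in SDS (chrXVI:404650-404799 and chrII:604208-604357, both plus strand, R64). Capitals mark a match to CCNTACA, a short form of the Rap1 site, and RPS9A holds none here:
RPS9A: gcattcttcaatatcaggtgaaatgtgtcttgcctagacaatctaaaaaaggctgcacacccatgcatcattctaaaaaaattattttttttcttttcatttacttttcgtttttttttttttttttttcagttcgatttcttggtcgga
RPS9B: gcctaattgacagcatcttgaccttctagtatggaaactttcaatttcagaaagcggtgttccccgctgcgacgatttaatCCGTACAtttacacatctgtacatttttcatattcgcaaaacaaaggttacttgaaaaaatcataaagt
Both genes have an intron, and the first 30 bases from the start codon are shown with the intron's first 6 bases in capitals (chrXVI:404950-404979 and chrII:604508-604537):
RPS9A: atgccaaGTACGTcgttaatcttctccttt
RPS9B: atgccaaGTACGTattagactatatcgaag
Both copies begin the intron with GTACGT, 7 bases into the coding sequence. Other forms of the Rap1 site were not searched for, in RPS9A or elsewhere. A missing match to CCNTACA or to CCCNNACA, a longer form, was not particular to RPS9A. RPS20 and RPS26A, which fell at 0.5 h of SDS, hold none in the 600 bases before the start codon. RPS30A, which was not called, holds several. Whether such matches bear on the changes was not tested.

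RPS9A, the copy with the lowest level per kilobase of the 56 genes in controls (383 ± 31.2 scaled CPM per kb, SD, n = 3), rose in SDS. It had 427, 545 and 572 scaled CPM at 0.5 h of SDS and 432, 568 and 630 at 1 h, against 214, 220.2 and 249 in controls. Every SDS library at both times lay above every control. The changes were 1.18 ± 0.16 at 0.5 h (SE; edgeR adjusted p = 8.17e-08) and 1.26 ± 0.16 at 1 h (adjusted p = 6.01e-08). At 2, 4 and 8 h they were 0.80, 0.71 and 0.62, with adjusted p of 8.66e-05, 0.000308 and 0.00224 but under the 2-fold limit, and at 20 h the change was 0.22. In EtOH no change of RPS9A was called, the values lying between -0.10 at 8 h and 0.32 at 0.5 h.

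RPS9B went the other way. It had 564, 671 and 691 scaled CPM at 0.5 h of SDS, against 2000.2, 2106 and 2309 in controls, a fall of 1.74 on the log2 scale (SE 0.23; edgeR adjusted p = 8.1e-08). It had 1238, 844 and 358 scaled CPM at 20 h of EtOH, a change of -1.39 ± 0.23 against the same controls (adjusted p = 5e-06). No library of either group reached a control. RPS9A therefore held 43.1%, 44.8% and 45.3% of the pair's counts at 0.5 h of SDS, against 9.62% ± 0.130 in controls (SD, n = 3), and its share was 37.0%, 27.8%, 25.1%, 14.2% and 11.3% at 1, 2, 4, 8 and 20 h. The A over B ratio was 7.5-fold higher at 0.5 h of SDS (log2 2.91, limma adjusted p over the 6 times 1.02e-13), and it was called at 5 of the 6 SDS times. In EtOH the share was 10.4%, 10.3% and 10.3% at 0.5, 1 and 2 h, 22.6%, 16.4% and 10.9% in the libraries of 8 h and 21.6%, 26.0% and 36.4% in those of 20 h. The ratio at 20 h of EtOH was higher by 1.84 on the log2 scale (limma adjusted p over the 6 times 1.1e-08), and here RPS9B fell while RPS9A was not called.

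**Figure D4:**
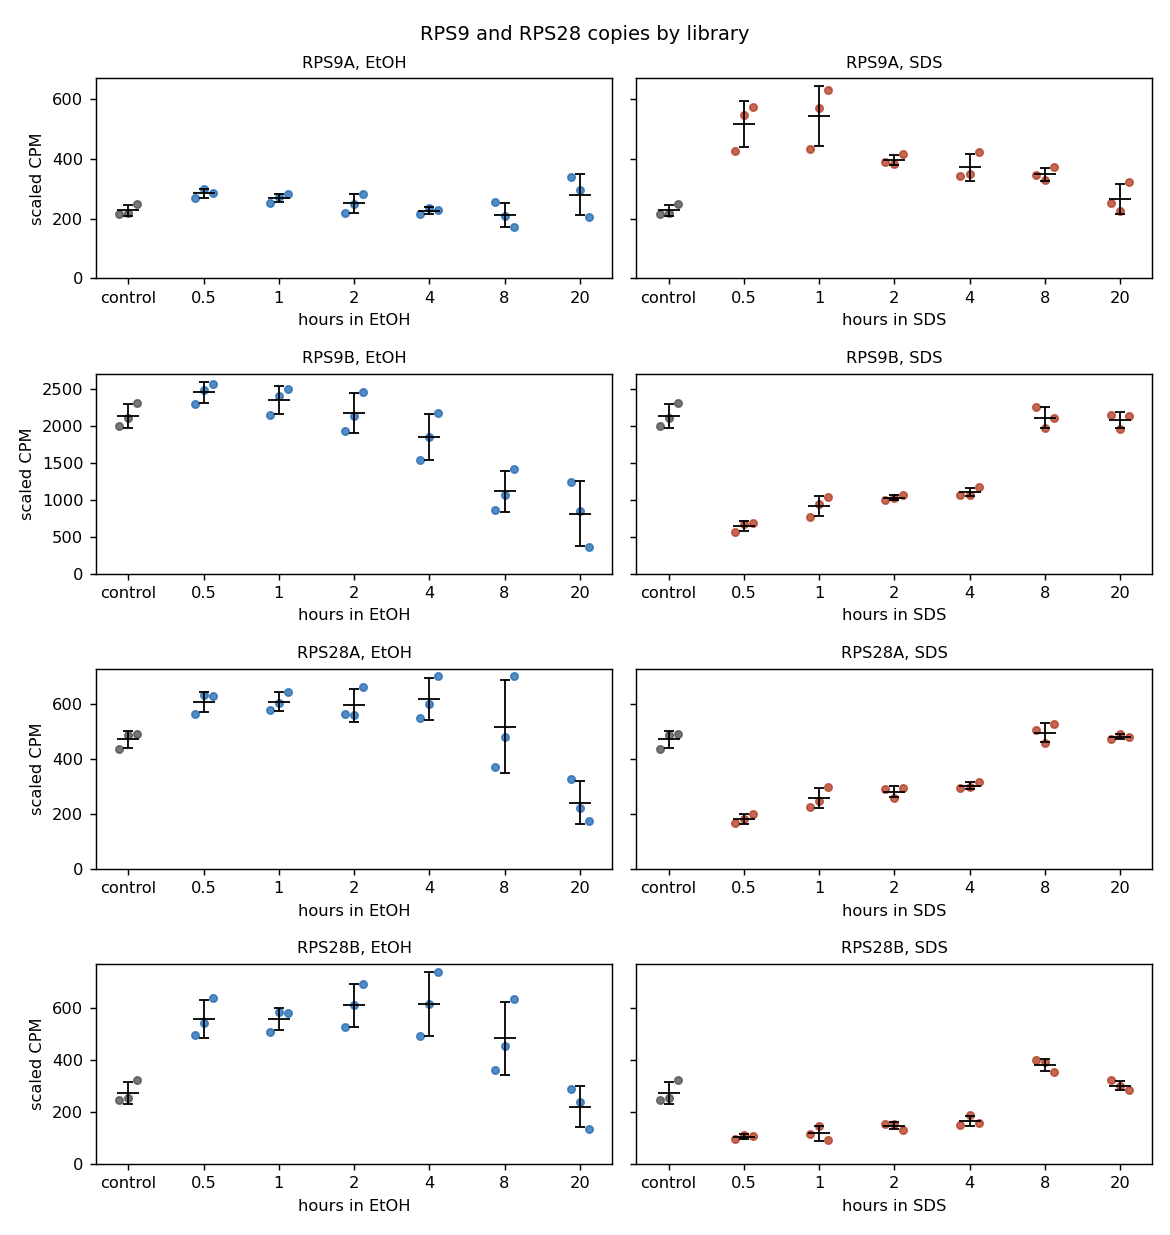
Scaled CPM of RPS9A, RPS9B, RPS28A and RPS28B in each library (y axis, from 0) by hours after the addition (x axis), with EtOH on the left and SDS on the right. Points are libraries and bars the mean ± SD of 3. RPS9A lies above the controls and RPS9B below them at 0.5 h of SDS, and RPS28B lies above the controls from 0.5 to 8 h of EtOH.

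RPS28B was the 1 member that rose in EtOH. Rps28 lies at the mRNA exit, and the protein is known to bind a hairpin in the 3' end of the RPS28B mRNA and hasten its decay together with Edc3. RPS28A (YOR167C, chrXV:648804-649007, minus strand, R64) and RPS28B (YLR264W, chrXII:673131-673334, plus strand) have no intron, no repeated stretch of 50 bases, and proteins that differ at 1 of 67 residues. A stretch of 100 bases upstream, 230 to 131 bases before the start codon, is shown because both copies hold a match to the site of the factor Abf1, TCA and ACG with 6 unspecified bases between them, on the reverse strand, in capitals (chrXV:649138-649237, minus strand, and chrXII:672901-673000, plus strand):
RPS28A: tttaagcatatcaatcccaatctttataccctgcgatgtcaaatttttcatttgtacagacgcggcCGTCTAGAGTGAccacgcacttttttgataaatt
RPS28B: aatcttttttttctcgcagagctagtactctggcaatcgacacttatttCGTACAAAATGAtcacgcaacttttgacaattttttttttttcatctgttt

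RPS28B had 495, 543 and 638 scaled CPM at 0.5 h of EtOH, 526, 614 and 693 at 2 h and 492, 616 and 738 at 4 h, against 244, 255 and 322 in controls. All these EtOH libraries lay above every control. The changes were 1.03 ± 0.20 at 0.5 h (SE; edgeR adjusted p = 0.000598), 1.03 at 1 h (adjusted p = 0.000605), 1.16 at 2 h (adjusted p = 0.000104) and 1.17 at 4 h (adjusted p = 3.88e-05). The calls at 0.5 and 1 h sat on the 2-fold limit: leaving out single libraries moved the changes between 0.92 and 1.16 and between 0.95 and 1.16, and the call was lost in 3 of 6 cases at 0.5 h (without control replicate 1 or 2 or EtOH 0.5 h replicate 3) and in 4 of 6 at 1 h (without control replicate 1 or 2 or EtOH 1 h replicate 2 or 3). It was also lost at 0.5 h when libraries were scaled by their totals alone (0.99). At 8 h the change was 0.82 (adjusted p = 0.000996) and at 20 h -0.32.

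RPS28A had 565, 632 and 629 scaled CPM at 0.5 h of EtOH, against 438, 487 and 492 in controls, a change of 0.37 that was not called (edgeR adjusted p = 0.139). The A share of the pair was lower at every EtOH time, 52.3% at 0.5 h and 49.5% at 2 h against 63.4% in controls, and the ratio was called at all 6 times (-0.67, -0.67, -0.83, -0.78, -0.71 and -0.64; limma adjusted p over the 6 times 0.000628). In SDS both copies fell at 0.5 h, RPS28A by 1.38 and RPS28B by 1.39 on the log2 scale. RPS28B at 94.5, 111 and 109 scaled CPM at 0.5 h of SDS therefore differed from EtOH at the same hour by 2.41 (EtOH over SDS, log2). The gap between EtOH and SDS was 2.25, 2.06 and 1.90 at 1, 2 and 4 h.

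RPS22 shifted towards B in both stresses. Rps22 binds the central domain of the 18S rRNA. RPS22A (YJL190C, chrX:74910-75302, minus strand, R64) has no intron and lies beside RPS14B, while RPS22B (YLR367W, chrXII:856442-857317, plus strand) has 1 annotated intron, which contains the small nucleolar RNA gene SNR44. That overlap of 211 bases was the only one between a member and another annotated gene, and reads of SNR44 and of unspliced RPS22B could not be separated there. The proteins differ at 1 residue and the genes have no repeated stretch of 50 bases. The upstream stretch of RPS22A from 300 to 151 bases before the start codon is shown because this copy was among the members that fell most (chrX:75453-75602, minus strand), with CCCATACA in capitals, a match to the Rap1 site CCCNNACA that also contains a match to CCNTACA. The start of the RPS22B intron follows it over 30 bases, with its first 6 bases in capitals (chrXII:856568-856597, plus strand):
RPS22A: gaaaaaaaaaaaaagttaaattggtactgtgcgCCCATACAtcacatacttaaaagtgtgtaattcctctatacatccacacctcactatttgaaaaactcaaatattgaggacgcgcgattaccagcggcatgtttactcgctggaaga
RPS22B: aagcatgGTATGTtccaactatttttcaat

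RPS22A had 305, 363 and 385 scaled CPM at 0.5 h of SDS, against 1246, 1299.5 and 1415 in controls, with no overlap, and changed by -1.91 ± 0.21 (SE; edgeR adjusted p = 1.8e-09). RPS22B had 129, 139.9 and 148 scaled CPM at 0.5 h of SDS, against 194, 200.3 and 208 in controls, a change of -0.53 that was below the 2-fold limit (adjusted p = 0.016). At 8 and 20 h of SDS the libraries of RPS22B lay above all controls, at 305, 276 and 303 and at 286, 303 and 301 scaled CPM, a change of 0.56 at both times that was not called (adjusted p = 0.0194 and 0.0192). RPS22A at those hours differed from the control by -0.15 and -0.14. The A share was 70.3%, 72.2% and 72.2% at 0.5 h of SDS and 78.4% on average at 20 h of EtOH, against 86.8% in controls. The ratio changed by up to -1.38 in SDS (limma adjusted p over the 6 times 1.34e-15) and -0.86 in EtOH (limma adjusted p over the 6 times 2.08e-12).

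RPS14 shifted towards B early in SDS. Rps14 is needed for 18S rRNA maturation and is known to bind the RPS14B pre-mRNA and repress its splicing. RPS14A (YCR031C) lies at chrIII:177500-178220 (minus strand, R64) and RPS14B (YJL191W) at chrX:73787-74611 (plus strand). Their introns start with different letters, shown in capitals over 30 bases (chrIII:178191-178220, minus strand, and chrX:73790-73819, plus strand):
RPS14A: atgtctaGTATGTttaatcacatagtgaac
RPS14B: gctaacgGTACGTgaaaggggtgatatcct
RPS14A fell at 0.5 h of SDS, with 442, 488 and 513 scaled CPM against 1279, 1379 and 1454 in controls. RPS14B changed by -0.60 at that time and was not called. At 20 h of EtOH RPS14B had 103, 87.3 and 73.4 scaled CPM, against 257, 267 and 292 in controls. Its change of -1.63 ± 0.15 was the largest fall of the 56 genes at that time (SE, edgeR adjusted p = 2.12e-10). RPS2, at -1.57 ± 0.20, lay within these errors. Without EtOH 20 h replicate 1 the order turned, with -1.91 for RPS2 and -1.76 for RPS14B. The A share was 72.9% at 0.5 h of SDS, 88.1% at 20 h of SDS and 87.8% at 20 h of EtOH, against 83.5% in controls. The ratio was called at 0.5 h (-0.91) and 1 h (-0.62) of SDS, both towards B. The later differences towards A, 0.56 at 20 h of SDS and 0.53 at 20 h of EtOH, stayed under the 1.5-fold limit (limma adjusted p at the single time 1.79e-05 and 1.18e-05).

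RPS26 and RPS30 shifted towards A in SDS. Rps26 touches the mRNA just upstream of the start codon at the exit channel. RPS26B (YER131W, chrV:423952-424311, plus strand, R64) had 238, 292 and 316 scaled CPM at 0.5 h of SDS, against 1114, 1142 and 1229 in controls. These groups lay far apart, and the change of -2.04 ± 0.19 was the largest of the 56 genes at that time (SE; edgeR adjusted p = 8.47e-11). RPS26A (YGL189C, chrVII:148229-148588, minus strand) had 459, 496 and 532 scaled CPM at 0.5 h of SDS, against 1049.6, 1108 and 1128 in controls, a fall of 1.14 on the log2 scale. The A share of RPS26 was 63.9% at 0.5 h and 59.7% at 1 h of SDS, against 48.5% in controls, a change of the ratio by 0.91. RPS30A held 86.1% of its pair at 0.5 h of SDS, against 77.2% in controls, a change of the ratio by 0.87; its 2 proteins are identical.

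RPS29 was among the pairs called in EtOH. RPS29A, for a small zinc-binding protein, had 165, 220.3 and 341 scaled CPM at 8 h of EtOH, against 159, 142 and 161 in controls, a change of 0.64 under the 2-fold limit (edgeR adjusted p = 0.00174). All 3 libraries lay above the controls, but by very different amounts. The A share of RPS29 was 45.8% at 8 h of EtOH, against 31.8% in controls, and the ratio changed by 0.86. RPS7, called between EtOH and SDS, had an A share of 56.8% at 20 h of EtOH, against 69.4% at 20 h of SDS, a change of the ratio by -0.79. RPS4B, a copy whose coding bases match RPS4A at 98.09%, had 673, 654 and 679 scaled CPM at 8 h of EtOH, against 2061, 2083 and 2282 in controls, the largest fall of the members at that time (-1.68 ± 0.21, SE; edgeR adjusted p = 6.78e-08). RPS4A fell by 1.19 there. The split between these 2 copies is uncertain, as 46.8% of the stretches of 50 bases in each occur more than once in the genome. How the authors counted reads that map to both is not given in the sources used here.

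**Figure D5:**
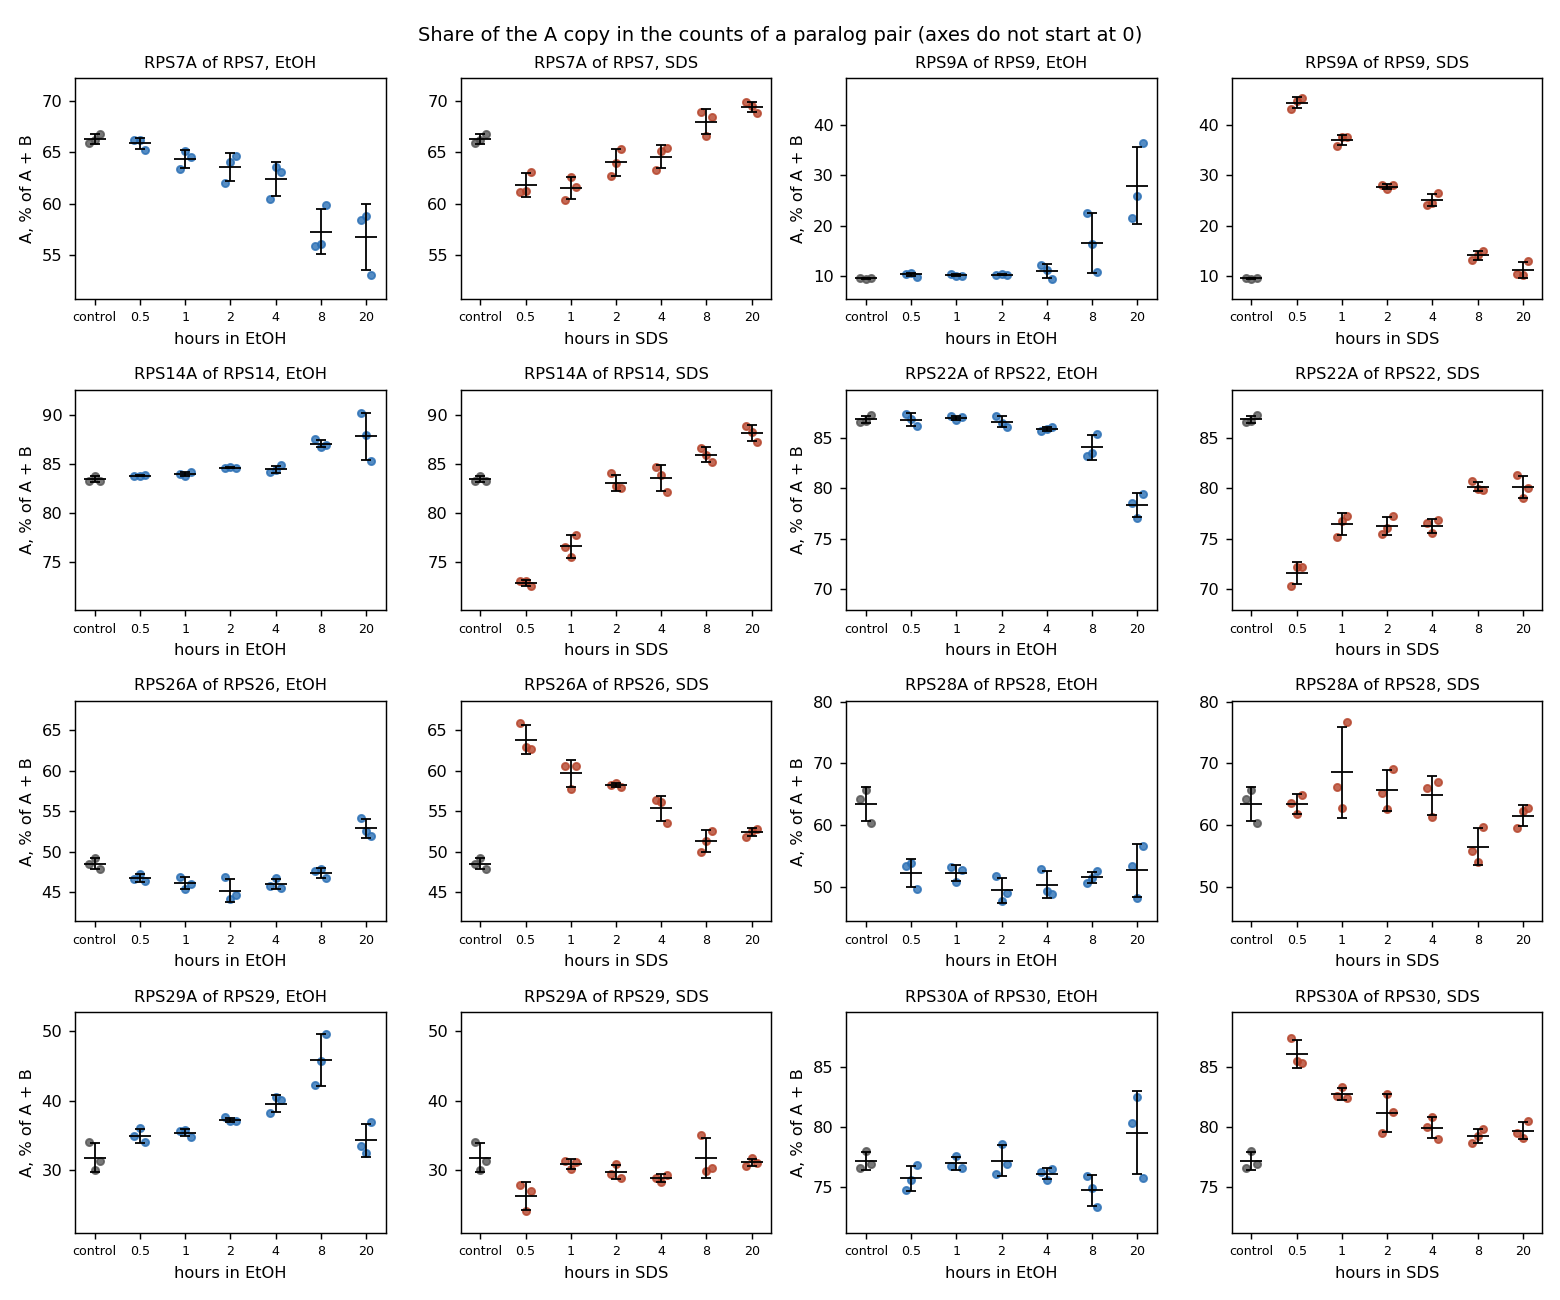
Share of the A copy in the summed counts of a pair (%, y axis, not from 0) by hours after the addition (x axis), with EtOH left of SDS for each pair. Points are libraries and bars the mean ± SD of 3. RPS9A lies at 44.4% at 0.5 h of SDS against 9.62% in controls, and RPS22A lies at 71.6% against 86.8%.

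Of the 56 genes 36 have an intron, among them RPS13 alone of the single-copy genes, with intron lengths of 256 to 551 bases. At 0.5 h of SDS 31 of the 36 genes with an intron fell and 1 rose (median -1.45), and 20 of the 20 without one fell (median -1.43). At 20 h of EtOH 26 of 36 (median -1.17) and 15 of 20 (median -1.35) fell. The intron began with GTATGT in 24 of 36 genes, with GTACGT in 9 and with GTATGA in 3. Of the 9 genes with GTACGT, RPS9B, RPS17B, RPS19A, RPS19B, RPS21B and RPS30B fell at 0.5 h of SDS, RPS9A rose, and RPS14B and RPS30A were not called.

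Within 600 bases before the start codon, on either strand, the Rap1 site CCCNNACA was found in 25 of 56 members (44.6%), against 15.2% of all 6018 genes with a window of that length. The shorter form CCNTACA, which overlaps it in matches such as CCCATACA, was found in 33 members (58.9%), against 18.7% of all genes, and either in 40 (71.4%), against 27.6%. The Abf1 site was found in 14 members (25%), against 25.7% of all genes, and GACGCA in 7 (12.5%), against 13%. A match is a description of these letters and not a bound site.

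Genes that work with the small subunit were followed for comparison. Of 81 large-subunit protein genes 66 fell and none rose at 0.5 h of SDS, with a median of -1.41. RPL9A averaged 480.4 scaled CPM there, against 1776 in controls (-1.89), and RPL12A 146 against 529.9 (-1.86). At 20 h of EtOH 58 of the 81 fell (median -1.15) and 3 were called higher, RPL33A, RPL39 and RPL43A. These 3 averaged 8.11, 1.45 and 0.937 scaled CPM at 20 h of EtOH, against 3.2, 0.258 and 0.262 in controls; ribosomal protein genes are usually highly expressed, and whether such low counts measure these transcripts was not tested. Of 20 factors that assemble the small subunit 13 fell at 0.5 h of SDS (median -1.29). LTV1, an export factor of the pre-40S particle, averaged 23.5 scaled CPM against 159 in controls (-2.75 ± 0.19, SE; edgeR adjusted p = 6.03e-14), and KRR1, needed early in assembly, 42.5 against 201 (-2.24; edgeR adjusted p = 1.02e-12). At 1 h of SDS 3 of the 20 were called lower. YAR1, the chaperone of free Rps3, was the 1 assembly factor that rose in EtOH, by 1.33, 1.39, 1.47, 1.17 and 1.32 on the log2 scale at 0.5, 1, 2, 4 and 20 h; it is named because it was the only one, after its values were seen.

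Of 12 regulators of ribosomal protein genes 2 fell at 0.5 h of SDS, TOD6 (-1.80), a repressor of ribosome biogenesis genes, and RAP1 (-1.02), a count close to the 10.6% of all features called lower in that comparison. IFH1, the coactivator that Fhl1 recruits, rose by 1.11 at 4 h of SDS together with CRF1 (1.01), the corepressor that competes with it, and by 1.39 and 1.22 at 8 and 20 h of EtOH. RAP1 fell by 1.23 at 8 h of EtOH. Of 15 genes for initiation factors and other proteins bound to the small subunit, 5 fell at 0.5 h of SDS: ASC1, STM1, RPG1, TIF11 and GCD11. ASC1, the yeast RACK1, averaged 1479 scaled CPM there, against 4255 in controls (-1.52), and STM1, which occupies the mRNA channel of idle ribosomes, changed by -1.25. At 20 h of EtOH 4 fell, STM1 (-1.59), ASC1 (-1.53), TIF11 (-1.33) and PRT1 (-1.01).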

How the data were processed

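Raw whole-number counts per gene of 39 *S. cerevisiae* BY4741 libraries were deposited by the authors in 1 table, without normalization. Per the submitters' processing notes, the tools named were featureCounts 2.0.1, STAR 2.7.8, Trimmomatic 0.39 and FastQC 0.11.9 and the genome build was R64. Whether counting used strand, and what was done with reads that map to several places, is not stated in the labels or the file. Groups came from the sample titles and columns from the column names in the labels. The 39 libraries of the other yeast in the series were not analysed here.

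Counts were analysed in R 4.3.3. Features with low counts were removed with filterByExpr of edgeR 4.0.16 (6101 of 7127 kept), libraries were scaled by TMM, and 1 quasi-likelihood model with 13 group terms and 26 residual degrees of freedom was fitted, with Benjamini-Hochberg adjustment over the 6101 features. A gene was called at an adjusted p under 0.05 with a log2 change of at least 1. Standard errors were computed from the change and its F statistic. The log2 ratio of A over B, with 0.5 added to each count, was tested with limma 3.58.1 over 64 pairs by an F test across the 6 times, with a 1.5-fold minimum. Single times were tested from the same limma fit, adjusted over the 64 pairs. Summed shares were compared by the exact permutation test.

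Named were, at each time, the 2 members with the largest fall and rise, the single-copy genes, the called pairs that changed most and the pairs that changed least, and 2 genes of each other list; some of these genes enter the counts but are not reported here by name. The members and lists were chosen with earlier results of these data known. Both tests were tested on simulated data. Libraries held 3105804 to 21167236 counts, and a count of 0 allows up to 3 counts, 0.966 CPM in the smallest library (counting error only, as the reads carry no molecular identifiers). The replicates are biological per the labels. The edgeR and limma p-values and standard errors rest on the spread between replicates, estimated per gene or pair over all 13 groups together. Where a group was wider than the others, as EtOH 20 h was (SD of the summed share 1.46, against 0.256 in controls), they can be too small. The alternatives were DESeq2 1.42.0, RLE scaling, scaling by library totals alone, TMM without ribosomal protein genes, no low-count filter, the 6 compared libraries alone, a replicate block, adjusted p alone, single libraries left out and, for pairs, voom weights, a pseudocount of 2 and a mean count of at least 100. Upstream regions and introns were read from the R64 genome and annotation of RefSeq.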

Additional observations from a re-analysis of the deposited data

Results flagged for a closer look

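Most of the 56 genes moved in opposite directions between 0.5 and 20 h in the 2 stresses: 53 were called higher at 20 h than at 0.5 h of SDS, and 52 were called lower at 20 h than at 0.5 h of EtOH. Of all features 7.54% were called higher in SDS and 4.77% lower in EtOH. The EtOH count of members was 39 without EtOH 20 h replicate 3. The members' medians were 1.38 in SDS and -1.37 in EtOH. The difference of these differences was not tested as 1 term. RPS9A and RPS30A were outside the calls between 0.5 and 20 h in both stresses. In the direct comparisons 52 members were higher in EtOH than in SDS at 0.5 h and 38 were lower in EtOH at 20 h, a count of 10 without EtOH 20 h replicate 3. Of all features 12.5% were called higher in EtOH at 0.5 h and 5.2% lower at 20 h.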

How the results depend on the processing

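Under DESeq2, RLE scaling, TMM without ribosomal protein genes, voom weights, a pseudocount of 2 and a minimum mean count of 100, each count of called members or pairs stayed within 1.5 times of the reported one. Deviations of same-numbered libraries (234 pairs) had a median correlation of 0.041 over all features (-0.355 to 0.407) and 0.099 over the 56 genes (-0.624 to 0.649; 50% of pairs over 0.1, against a median of -0.044 for libraries of other numbers). Replicate 1 had the lowest and replicate 3 the highest summed share in 10 of 13 groups, and in EtOH 20 h the reverse. The labels do not say what a number shares, and not every pair of libraries passed 0.1, so the reported fit did not pair samples by number. Failing that rule does not show that same-numbered libraries are independent. Control and EtOH libraries were drawn from the same aliquot of a split culture, and libraries of 1 number may share a culture. With the replicate block the counts were also within 1.5 times, 52 at 0.5 h of SDS among them.

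Counts of called members that moved more were, for EtOH against SDS at 4 h, 7 without the low-count filter and 7 with only the 6 libraries compared (reported 11). Scaling by library totals alone raised the median of all features by 0.17 at 0.5 h of SDS, 0.36 at 8 h of EtOH and 0.29 at 20 h of EtOH. With it the counts were 21, 5 and 0 at 1, 2 and 4 h of SDS, 0, 3 and 24 at 0.5, 8 and 20 h of EtOH, and 15, 4, 1 and 15 for EtOH against SDS at 2, 4, 8 and 20 h. RPS22B at 4 h of SDS was then 0.0933. For this scaling, and for adjusted p alone below, the share of all features or pairs called is not given here. The shares printed earlier belong to the reported fit and call rule. By adjusted p alone the counts were 55, 55, 2 and 2 at 2, 4, 8 and 20 h of SDS, 4 and 40 at 4 and 8 h of EtOH, 55, 51 and 35 for EtOH against SDS at 2, 4 and 8 h, and 23, 24 and 24 pairs in SDS, EtOH and EtOH against SDS. As a share of counts outside the ribosomal protein genes, the summed log2 ratio was -1.46, -0.97 and -0.79 at 0.5, 2 and 4 h of SDS and 1.59 for EtOH against SDS at 0.5 h.

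Leaving out single libraries gave 4 to 10 called members at 4 h of SDS, 0 to 1 at 0.5 and 1 h of EtOH, 21 to 51 at 20 h of EtOH, and 4 to 19, 6 to 13 and 10 to 50 for EtOH against SDS at 4, 8 and 20 h. RPS31 and RPS2 at 0.5 h of EtOH lay between -0.0687 and 3e-04 and between -0.0592 and 0.0658. Apart from the library size and share settings, the cause of these moves was not tested. The members' lowest count of 341 leaves depth no limit on detection; the spread between EtOH libraries limits the late comparisons.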
